A study of Mus musculus with 6 samples.

Results

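The genes described here are the 4 Notch receptors of the mouse, Notch1, Notch2, Notch3 and Notch4, and 4 of their ligands, Jag1, Jag2, Dll1 and Dll4. They were chosen by name, and all 8 were among the 13730 genes of the deposited count table, each as 1 RefSeq transcript with whole-number counts in every tumor. RNA was measured in 6 C0321 tumors from female FVB mice that were 6 to 10 weeks old when 1000000 tumor cells in Matrigel and PBS were placed in the mammary fat pad. C0321 is a triple-negative breast cancer (TNBC) line, a single transplantable clone with a mesenchymal, claudin-low profile, that arose in FVB mice with conditional loss of Lunatic Fringe (Lfng). All tumors therefore come from cells that lack this gene by design, while the stroma, vessels and leukocytes come from the immunocompetent host. Once a mass could be felt, control treatment (3 tumors) or sulindac sulfide (SS, 3 tumors) was given by mouth every day for 14 days, SS at 60 mg/kg. The sample labels name the drug a sulfate and the series text calls the control saline. In the study itself the drug is sulindac sulfide and the control a vehicle.

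Notch receptors are single-pass membrane proteins that are activated by ligands on a neighboring cell. Ligand binding opens the receptor to an ADAM protease and then to γ-secretase, which frees the intracellular domain to enter the nucleus, bind RBPJ and switch on genes such as Hes1. The Jagged and Delta-like ligands are themselves membrane proteins, Dll4 and Notch4 are best known from vessel endothelium, and Notch3 from pericytes and smooth muscle. SS modulates γ-secretase, and the comparison asks whether the RNA of the receptors and ligands differed after treatment. Cleavage and protein were not measured in these libraries.

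Total counts ranged from 8468914 in SS tumor 2 to 24441522 in control tumor 3, and the median total was lower in the SS group. CPM below are counts per 1000000 counts after TMM scaling, and 3 counts, the floor of detection used here, correspond to between 0.123 and 0.354 CPM of the unscaled totals. Lfng, the gene deleted in the source of the line, had between 4.65 and 6.40 CPM in all 6 tumors. The counts do not show which part of the gene these reads cover, or whether they come from tumor or host cells. The hormone receptor genes Esr1 and Pgr and the HER2 gene Erbb2 together gave between 23.4 and 30.5 CPM. Most of this was Erbb2, with a mean of 19.4 CPM, against 5.58 for Esr1 and 1.31 for Pgr. The sum was between 504 and 745 CPM for 11 epithelial markers, led by Krt8, and between 11537 and 14739 CPM for 7 mesenchymal markers, led by Vim and Fn1.

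Promoter sequences are shown for the pairs of members whose RNA ran most alike across the tumors, Notch1 with Notch2 and Notch3 with Jag2, as the 250 bases before each RefSeq start site on GRCm38.p6. They lie at chr2:26503823-26504072 on the minus strand, chr3:98013288-98013537 on the plus strand, chr17:32166891-32167140 on the minus strand and chr12:112929496-112929745 on the minus strand. The start site of Notch3 in that table lies 38 bases upstream of the one deposited, and the RefSeq gene of Jag2 reaches to 112929812, so that its window lies within the gene. Each sequence reads 5′ to 3′ on the strand of the gene, and capitals mark matches to the GC box GGGCGG on either strand.
Notch1: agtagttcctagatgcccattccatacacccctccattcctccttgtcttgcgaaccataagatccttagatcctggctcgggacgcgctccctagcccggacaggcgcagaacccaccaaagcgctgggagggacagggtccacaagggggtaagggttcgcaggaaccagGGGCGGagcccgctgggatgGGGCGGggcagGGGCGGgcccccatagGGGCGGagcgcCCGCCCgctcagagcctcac
Notch2: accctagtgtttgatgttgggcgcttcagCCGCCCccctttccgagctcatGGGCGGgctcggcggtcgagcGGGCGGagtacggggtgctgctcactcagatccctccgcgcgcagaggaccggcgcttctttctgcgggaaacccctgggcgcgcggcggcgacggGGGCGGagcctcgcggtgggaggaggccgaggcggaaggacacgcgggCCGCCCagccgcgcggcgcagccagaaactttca
Notch3: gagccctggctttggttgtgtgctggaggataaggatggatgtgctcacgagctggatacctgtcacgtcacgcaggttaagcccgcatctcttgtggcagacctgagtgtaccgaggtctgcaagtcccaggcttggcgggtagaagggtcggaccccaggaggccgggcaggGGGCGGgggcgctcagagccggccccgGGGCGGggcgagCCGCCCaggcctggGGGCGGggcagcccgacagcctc
Jag2: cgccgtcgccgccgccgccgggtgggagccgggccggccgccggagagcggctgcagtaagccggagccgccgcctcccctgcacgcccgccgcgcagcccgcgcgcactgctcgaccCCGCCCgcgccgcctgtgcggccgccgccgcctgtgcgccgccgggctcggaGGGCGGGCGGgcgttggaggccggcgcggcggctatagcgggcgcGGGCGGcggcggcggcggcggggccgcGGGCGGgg
Notch1 and Notch2 held 5 GC boxes each, Notch3 held 4, and Jag2 held 5, of which 2 overlapped. Of the other members Dll4 held 2, and Notch4, Jag1 and Dll1 held 0 in this window, while 32.7% of 32851 mouse promoters of the same length held at least 1. The RBPJ core TGGGAA was found on either strand in 0 of the 8 members' windows, against 21.6% of all promoters, and the TATA box letters TATAAA in 0 of 8, against 12.4%. CpG counts ranged from 4 in Notch4 to 54 in Jag2, beside a median of 6 over all promoters. Dll1 had 2 windows, with 21 CpG sites at the deposited start and 13 at another RefSeq start 1109 bases upstream. Neither held a match to any of the motifs above. These matches describe letters only, and no binding was measured.

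Notch1 and Notch2 were the abundant receptors, and neither differed between the groups beyond the spread between tumors. Notch1, the best known of the receptors, lies on chromosome 2 from 26457902 to 26503823 (GRCm38, as deposited) with 34 exons. It was at 181, 221 and 221 CPM in controls 1, 2 and 3, against 249, 174 and 216 CPM in SS tumors 1, 2 and 3. SS tumors held both the highest and the lowest value, so that the groups overlapped. The means were 208 ± 23.2 CPM (SD, n = 3) and 213 ± 37.2 CPM (SD, n = 3), and the log2 fold change, SS over control, was 0.036 (SE 0.15). The 95% interval ran from -0.31 to 0.38 on the log2 scale, or from 0.805-fold to 1.30-fold, with an adjusted p of 0.970 in edgeR's quasi-likelihood test. In RNA of whole tumors, fewer cells of a type and less RNA per cell cannot be told apart, for this or any gene below.

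Notch2, a close paralog with broad expression, lies on chromosome 3 from 98013538 to 98150368. It was at 238, 282 and 320 CPM in controls and 324, 221 and 282 CPM under SS. The order of the tumors was close to that for Notch1, with SS tumor 2 and control tumor 1 lowest and SS tumor 1 highest. The log2 fold change was -0.025 (SE 0.17), with a 95% interval from -0.41 to 0.36 (adjusted p = 0.982, edgeR's quasi-likelihood test).

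Notch3 and Notch4 were the less abundant receptors, with higher means in the SS group that did not pass the test. Notch3, on chromosome 17 from 32120893 to 32166853, was at 25.5, 13.1 and 16.9 CPM in controls and 20.8, 31.7 and 25.4 CPM under SS. SS tumor 2 was the highest, and control tumor 1 lay above SS tumors 1 and 3. The means of 18.5 ± 6.32 CPM (SD, n = 3) and 25.9 ± 5.50 CPM (SD, n = 3) gave a log2 fold change of 0.49 (SE 0.27), with a 95% interval from -0.14 to 1.13 (adjusted p = 0.811, edgeR's quasi-likelihood test). Notch4, a receptor known from endothelium, on chromosome 17 from 34564295 to 34588544, was at 13.5, 13.8 and 9.56 CPM in controls and 11.5, 17.4 and 15.9 CPM under SS. Here control tumors 1 and 2 lay above SS tumor 1. Its log2 fold change was 0.28 (SE 0.24), with a 95% interval from -0.27 to 0.82 (adjusted p = 0.890, edgeR's quasi-likelihood test).

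Among the ligands, Jag1 had the most RNA and Jag2 the largest difference between the group means. Jag1, a Jagged ligand needed in development, lies on chromosome 2 from 137081451 to 137116521. It was at 141, 150 and 190 CPM in controls and 148, 131 and 190 CPM under SS. The highest tumor of each group reached the same level, and SS tumor 2 was the lowest. The log2 fold change was -0.036 (SE 0.17), with a 95% interval from -0.44 to 0.36, or from 0.739-fold to 1.29-fold (adjusted p = 0.973, edgeR's quasi-likelihood test).

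Jag2, the other Jagged ligand, on chromosome 12 from 112908590 to 112929496, was at 87.4, 45.5 and 55.5 CPM in controls and 74.8, 137 and 73.4 CPM under SS. SS tumor 2 stood above all others, and control tumor 1 lay above SS tumors 1 and 3. The means of 62.8 ± 21.9 CPM (SD, n = 3) and 95.2 ± 36.5 CPM (SD, n = 3) gave a log2 fold change of 0.60 (SE 0.31), with a 95% interval from -0.13 to 1.33. The adjusted p was 0.792 in edgeR's quasi-likelihood test, and the unadjusted p was 0.0942. Without SS tumor 2 the log2 fold change was 0.24, and without control tumor 1 it was 0.91. DESeq2's Wald test gave Jag2 an unadjusted p of 0.0495 and an adjusted p of 0.755, and 1 of the 8 members was thus under 0.05 before adjustment in DESeq2, where the share over all genes was 6.1% and of those higher in SS 2.62%.

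The Delta-like ligands were scarce. Dll4, a ligand of sprouting endothelium, on chromosome 2 from 119325784 to 119335667, was at 11.9, 14.5 and 12.1 CPM in controls and 10.4, 14.2 and 10.3 CPM under SS. SS tumors 1 and 3 lay below all controls and SS tumor 2 above control tumors 1 and 3. Its log2 fold change was -0.14 (SE 0.20), with a 95% interval from -0.62 to 0.33 (adjusted p = 0.929, edgeR's quasi-likelihood test). Dll1, a Delta-like ligand known from progenitor cells, on chromosome 17 from 15367354 to 15375824, had the fewest reads of the members, between 35 and 81 counts per tumor. It was at 5.14, 3.54 and 3.32 CPM in controls and 3.77, 5.84 and 2.96 CPM under SS. The exact Poisson 95% interval of the highest, SS tumor 2, ran from 4.32 to 7.72 CPM and that of the lowest, SS tumor 3, from 2.06 to 4.11 CPM, which covers counting error only. The log2 fold change of Dll1 was 0.065 (SE 0.37), with a 95% interval from -0.80 to 0.93, the widest of the 8, which spans 0.574-fold to 1.91-fold (adjusted p = 0.979, edgeR's quasi-likelihood test).

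**Figure D1:**
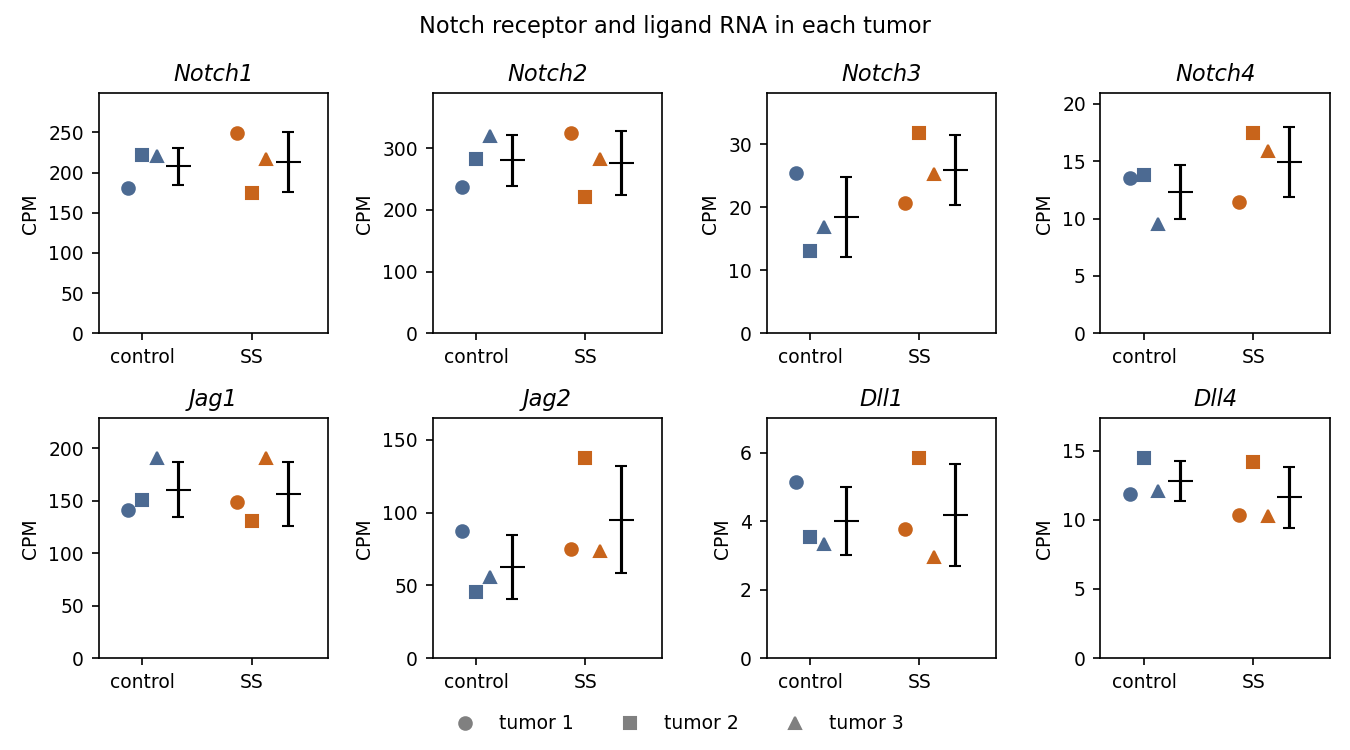
CPM of each receptor and ligand, with 1 point per tumor, marker shape for the tumor number within a group, and bars for the mean and SD of 3 tumors. In every panel the control and SS points overlap, and SS tumor 2 (square) is the highest point for Notch3, Notch4, Jag2 and Dll1.

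After Benjamini-Hochberg adjustment of the edgeR p-values, 0 of the 8 members and 0 of all 10902 genes tested (0%) fell under 0.05. At an unadjusted p under 0.05 there were 0 of the 8 members, where the share over all genes tested was 6.36% (693 genes). The groups overlapped for 8 of 8 members, where they did not overlap for 12.9% of all genes tested (6.51% higher and 6.4% lower in SS). The median log2 fold change of the members was 0.050, beside -0.0013 over all genes tested, with 5 members above 0 and 3 below. For each member the exact two-sided permutation test of mean CPM gave p between 0.3 and 1, where 0.1 is the smallest that 3 against 3 allows. DESeq2's Wald test called 37 genes (0.27%) after adjustment, 0 of them members, and limma-voom and quantile normalization with limma called 0 genes. Leaving out control tumor 1 brought 2 of the 8 members, Notch3 and Jag2, to an unadjusted p under 0.05 (0.0127 and 0.0175 in edgeR's test), both higher in SS tumors, where the share of all genes tested was 7.81% and of those higher in SS 4.56%. Their adjusted p was then 0.548 in edgeR's test.

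**Figure D2:**
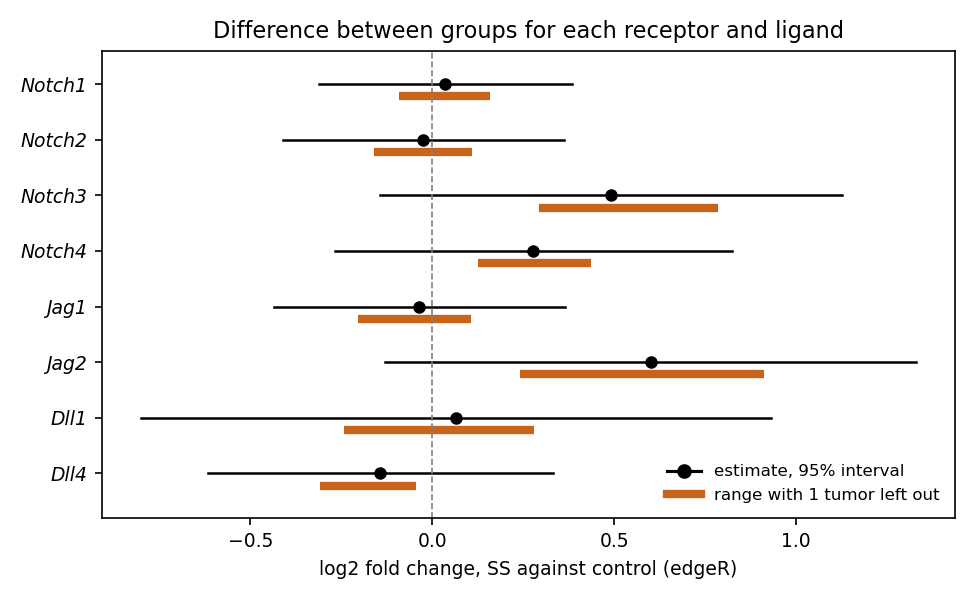
Log2 fold change of each member in SS against control tumors from edgeR, with black lines for the 95% interval and orange bars for the range of estimates with each tumor left out in turn. Every interval includes 0, and the intervals of Notch1, Notch2 and Jag1 stay within 0.44 of 0 on the log2 scale.

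Levels of different genes were compared as CPM per kb of transcript, with transcript lengths from GENCODE M21. By the mean of 6 tumors the order was Jag1 at 28.2, Notch2 at 26.4, Notch1 at 22.2, Jag2 at 15.5, Dll4 at 3.26, Notch3 at 2.77, Notch4 at 2.06 and Dll1 at 1.14 CPM per kb. The first 4 genes thus formed an upper tier, and in every tumor the level of Jag2, the last of that tier, was between 2.31 and 7.10 times that of Dll4. Within tumors, the ratios of Jag1 to Notch2, with Jag1 higher in 4 of 6 tumors, and of Dll4 to Notch3, with Dll4 higher in 3 of 6, did not part the neighbors (exact sign-flip permutation test, adjusted p = 0.365 and 0.375 over 7 pairs). Notch2 was above Notch1 in 6 of 6 tumors by a geometric mean of 1.19-fold, Jag2 above Dll4 by 4.50-fold, and Notch4 above Dll1 by 1.82-fold. Each had an unadjusted exact sign-flip p of 0.0312, the smallest possible with 6 tumors, and an adjusted p of 0.0729. The pairs were taken from the order in these same tumors. With that smallest p, an adjusted p under 0.05 was possible only if most of the 7 pairs reached it. Notch1 was above Jag2 in 5 of 6 tumors, and the exception was SS tumor 2. Notch3 was above Notch4 in 5 of 6 tumors, and the exception was control tumor 2. With coding length in place of transcript length the order was the same. On a scale of counts per length over 13545 genes, Jag1 lay above 86.9% of genes, Notch2 above 86.1%, Notch1 above 83.8% and Jag2 above 79.3%, whereas Dll1 lay above 37.9%.

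**Figure D3:**
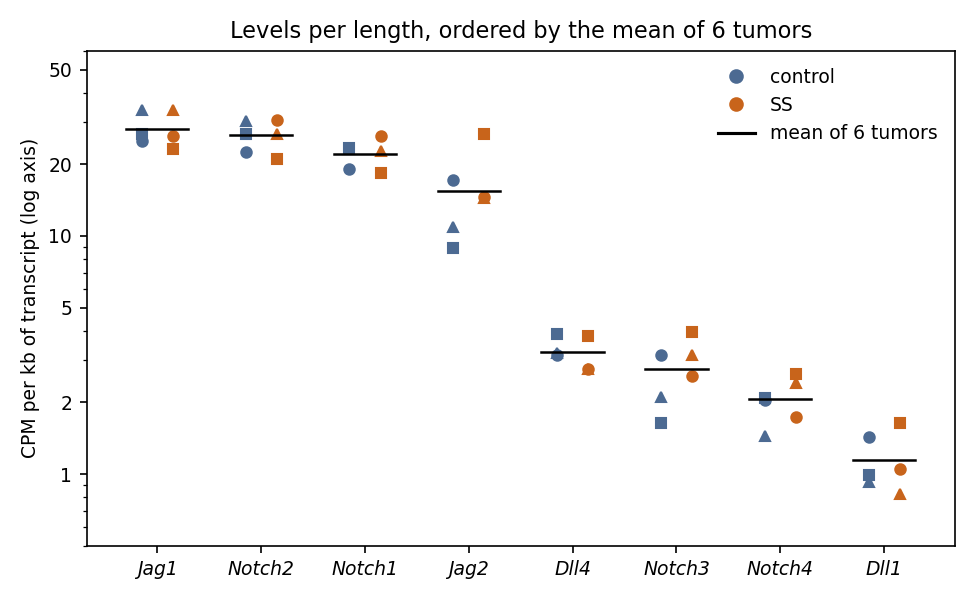
CPM per kb of transcript on a log axis for the 8 genes in the order of their mean over 6 tumors, with blue points for control, orange points for SS and black lines for the mean. Jag1, Notch2, Notch1 and Jag2 lie between 8.91 and 33.9 CPM per kb, and the other 4 genes between 0.826 and 3.96.

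Shares within a family do not depend on the scaling of the library. Of the summed receptor level per kb, Notch2 made up 48.2%, 49.8% and 53.2% in controls and 50.2%, 45.7% and 48.6% under SS. Notch1 made up between 39.9% and 43.2% in all 6 tumors. Notch3 ranged from 3.03% to 6.77% in control and from 4.22% to 8.60% in SS tumors, and Notch4 from 2.53% to 4.37% and from 2.84% to 5.74%. The receptor mixture was therefore much alike in all tumors, with SS tumor 2 and control tumor 1 carrying the largest share of Notch3. The ligand mixture varied more. Jag1 made up 53.6%, 66.1% and 69.3% of the ligand level in controls and 58.9%, 41.9% and 65.4% under SS. Jag2 made up 36.6% in control 1 and at most 22.2% in the other controls, and 32.6%, 48.4% and 27.7% under SS, so that in SS tumor 2 it exceeded Jag1. The SS mean minus the control mean was -7.61 percentage points for Jag1 and 9.31 for Jag2, and without SS tumor 2 it was -0.854 and 3.24. Dll4 held between 5.30% and 9.51% and Dll1 between 1.59% and 3.07%. Each of these shares overlapped between the groups. The sum of the 4 ligands was between 0.751 and 0.997 times that of the 4 receptors in control tumors and between 0.732 and 1.21 times in SS tumors.

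**Figure D4:**
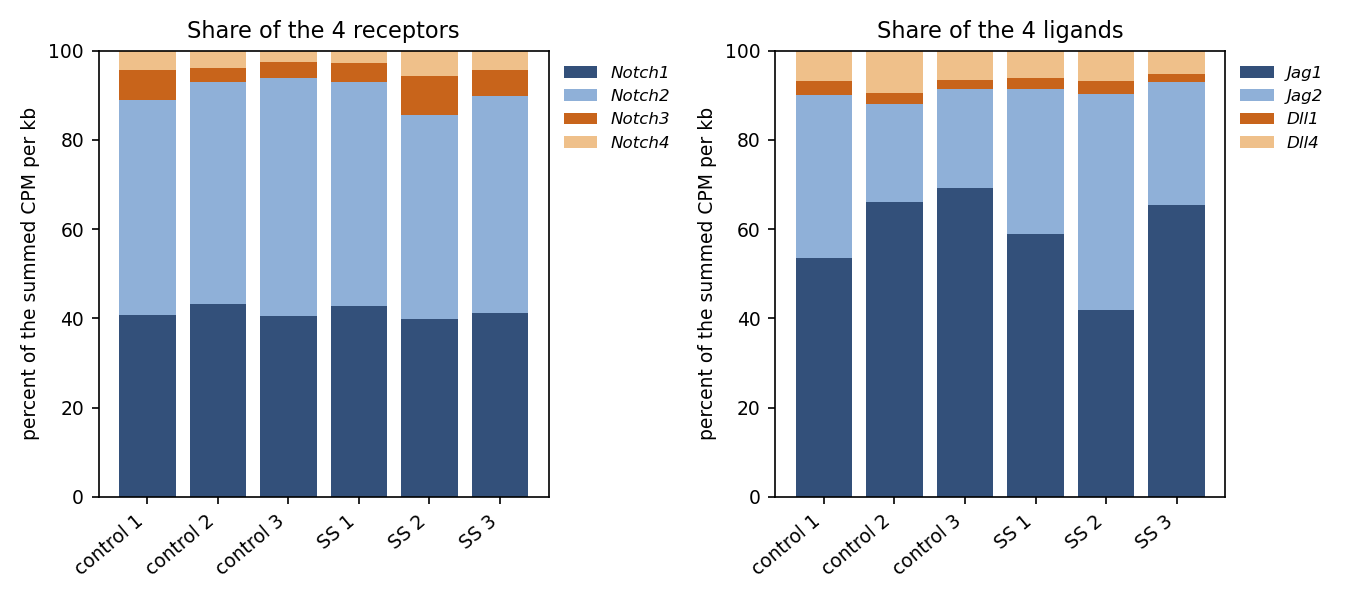
Stacked bars of the share of each receptor (left) and each ligand (right) in the summed CPM per kb of its family, in percent, for the 6 tumors. Receptor shares are similar in all tumors, and the Jag2 share of ligands is highest in SS tumor 2 (48.4%) and control tumor 1 (36.6%).

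Across the 6 tumors, 2 of the 28 pairs of members ran together most closely. For Notch1 and Notch2, Pearson's r of log2 CPM was 0.953 (exact permutation p = 0.00417, adjusted over 28 pairs 0.117) and Spearman's rho was 0.943 (exact permutation p = 0.0167, adjusted 0.156). Without SS tumor 2 and control tumor 1, the tumors farthest from the median of Notch1, r was 0.676. For Notch3 and Jag2, r was 0.946 (exact permutation p = 0.00972, adjusted 0.136) and rho was 0.943 (exact permutation p = 0.0167, adjusted 0.156). Without control tumor 2 and SS tumor 2, r was 0.882. Within control tumors r was 0.905 for the first pair and 0.997 for the second, and within SS tumors 0.999 and 0.870, over 3 tumors each. The lowest r was that of Jag1 and Dll1, at -0.871, with a rho of -1 (exact permutation p = 0.0403, adjusted 0.326, and exact permutation p = 0.00278, adjusted 0.0778). No pair passed adjustment, and all members share the depth and scaling of their libraries.

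**Figure D5:**
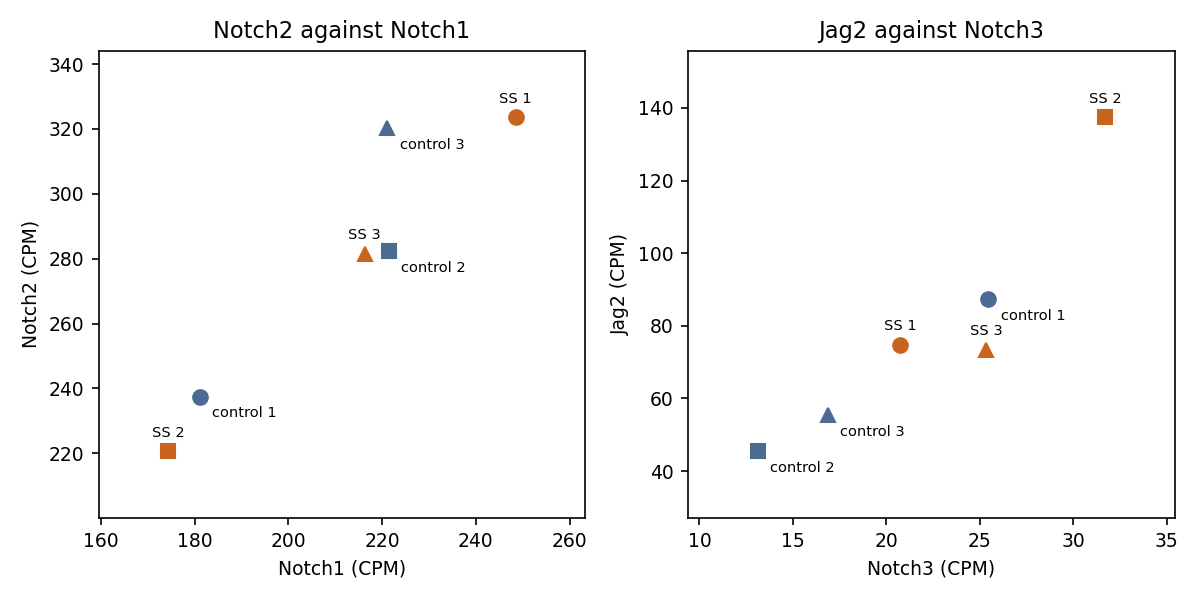
CPM of Notch2 against Notch1 (left) and of Jag2 against Notch3 (right), with 1 labelled point per tumor, blue for control and orange for SS. In both panels the points rise together without parting the groups, and SS tumor 2 is lowest on the left and highest on the right.

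SS tumor 2 was the highest of the 6 tumors for Notch3, Notch4, Jag2 and Dll1 and the lowest for Notch1, Notch2 and Jag1. It was also the smallest library. The summed level of 17 endothelial markers in the table, out of 18 listed, was 249, 214 and 159 CPM in controls and 226, 390 and 221 CPM under SS, with Cdh5 and Eng the most abundant and Pecam1 at 0 in control tumors 1 and 2 and SS tumor 3. Of 16 of these tested, 3 were higher and 0 lower in SS at an unadjusted edgeR p under 0.05, where the shares over all genes tested were 3.19% and 3.16%. The summed level of 11 of 12 pericyte and smooth muscle markers ranged from 1092 to 1865 CPM in control and from 994 to 2125 CPM in SS tumors, with none at 0. Acta2, with a mean of 730 CPM, and Des, which ranged from 54.4 CPM in SS tumor 1 to 1062 CPM in SS tumor 2, made up most of this sum, while the pericyte marker Rgs5 ranged from 12.8 to 19.6 CPM. The summed level of 9 of 10 adipocyte markers was 94.8, 12.2 and 9.52 CPM in controls and 41.1, 64.3 and 16.5 CPM under SS, so that control tumor 1 and SS tumor 2, highest for Jag2 and Notch3, were highest here too. Adipoq, Plin1, Plin4, Cidec, Lep and Cfd were each at 0 in at least 1 tumor, and Lipe was the most abundant by mean. Of the 11 epithelial markers, 4 (Cdh1, Krt14, Krt17 and Cldn7) had their highest values in the same pair of tumors. Others did not: Krt8, the most abundant, was highest in control tumor 2 (544 CPM), and Cldn3 and Cldn4 in control tumor 3. Krt18 was highest in control tumor 2 (98.1 CPM) and lowest in SS tumor 2 (59.5 CPM). The basal keratin Krt14 was at 45.8, 14.0 and 6.44 CPM in controls against 20.9, 33.9 and 7.61 CPM under SS, and Krt17 at 26.2, 2.75 and 0.164 CPM against 9.87, 24.4 and 1.27 CPM. Krt5, another basal keratin, was highest in control tumor 1 and SS tumor 1, at 73.1, 1.13 and 1.44 CPM in controls against 33.9, 26.7 and 0 CPM under SS. Control tumor 1 was also highest for the sum of 5 of 10 T cell markers, led by Cd3e and Lck, at 83.6 CPM, against 12.2 to 33.7 CPM in the other tumors. The part of these cells and of depth in the levels of the members was not tested.

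Relative to the summed endothelial markers, Dll4 was at 47.7, 67.4 and 75.9 CPM per 1000 marker CPM in controls and 45.9, 36.4 and 46.7 under SS. Each SS tumor lay below each control (p = 0.1 by exact permutation of the 6 tumors, 2-sided, which is the lowest value attainable). Dll4 was the 1 member of 8 whose ratio did not overlap between the groups, where 10.6% of all genes tested did not overlap on that ratio and 10.2% were lower, so that 1 of 8 lies near that share. Notch4 on the same ratio was at 54.4, 64.4 and 60.1 in controls and 50.7, 44.6 and 71.9 under SS, with groups that overlapped. Notch3 per 1000 CPM of pericyte and smooth muscle markers, a sum carried by Acta2 and Des, was at 23.3, 7.04 and 12.3 in controls and 20.9, 14.9 and 14.5 under SS, and on that ratio 0 of 8 members had groups that did not overlap, beside 2.64% of all genes tested, 1.91% lower.

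Of 85 other genes of the Notch pathway on 6 lists, 72 were tested, and 0 passed adjustment in edgeR's test. At an unadjusted p under 0.05 there were 3 higher and 4 lower in SS tumors, where the shares over all genes tested were 3.19% and 3.16%. Their median log2 fold change was -0.0060. None of the 3 other ligands tested, the 8 genes for sugar modification of the receptors or the 10 proteases and γ-secretase subunits was among the 7. The smallest p in these lists belonged to Mfap2, a matrix protein, at -0.81, to Poglut1, which adds glucose to Notch, at -0.30, and to Aph1b, a γ-secretase subunit, at 0.80 (log2 fold changes, SE 0.43, 0.21 and 0.53). Of 14 genes of ubiquitin transfer and trafficking, Dtx4, a Deltex ubiquitin ligase, was at 81.3, 105 and 103 CPM in controls and 65.8, 72.7 and 77.9 CPM under SS, a log2 fold change of -0.42 (unadjusted p = 0.0146 in edgeR's test).

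Among the 21 nuclear factors tested, those named here had higher means in SS, at an unadjusted edgeR p of 0.0366 for Spen and 0.0488 for Tle2. Spen, a corepressor that binds RBPJ, was at 61.5, 58.6 and 59.4 CPM in controls and 79.4, 68.3 and 69.1 CPM under SS, or 0.27 (SE 0.11) as a log2 fold change. Tle2, a Groucho corepressor at between 1.66 and 3.46 CPM, had a log2 fold change of 0.82 (SE 0.35). Both had every SS tumor above every control, as did 6.51% of all genes tested. Of 16 target genes tested, 11 had a log2 fold change below 0 and 5 above, with a median of -0.15, beside -0.0013 over all genes tested. The 3 at an unadjusted edgeR p under 0.05 had lower means in SS tumors, where 3.16% of all genes tested were lower at that p. Among the rest the smallest unadjusted edgeR p was 0.240. Sox9, a transcription factor, was at 105, 87.5 and 203 CPM in controls and 56.7, 62.0 and 85.8 CPM under SS, or -0.95 (SE 0.32) as a log2 fold change, and every SS tumor lay below every control, as for 6.4% of all genes tested. Hes1, the repressor that is the classical Notch target, was at 25.1, 30.5 and 33.1 CPM in controls and 19.7, 21.9 and 25.2 CPM under SS, or -0.41 (SE 0.17), and SS tumor 3 lay just above control tumor 1. Myc, a growth regulator, was at 41.5, 44.3 and 49.2 CPM in controls and 32.9, 39.9 and 36.0 CPM under SS, or -0.31 (SE 0.13), with no overlap. The adjusted p was 0.771 for Dtx4, Spen, Tle2, Sox9, Hes1 and Myc in edgeR's test.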

How the data were processed

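RNA of 6 tumors, 3 per group, was sequenced from stranded, polyadenylated libraries with paired reads of 75 nucleotides. Values are estimated counts of RefSeq transcripts as deposited, unnormalized, each summing to at least 10 over the tumors. The submitters' processing notes name CASAVA 1.8.1, Bowtie2 2.2.5, STAR 2.5.3a and mm10, and the counting tool and its use of strand are not given in the sources used here. Totals ran from 8468914 to 24441522 counts, so that scarce genes such as Dll1 carry a counting error of up to 16.9%.

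Transcripts were summed by symbol and rounded, and 22 symbols held as calendar dates were restored from accessions. With TMM scaling, 10902 genes that passed filterByExpr were compared in edgeR 4.0.16 (R 4.3.3, quasi-likelihood, Benjamini-Hochberg). This step was run on simulated counts with changes larger than any estimated for a member, so its power for smaller changes was not checked. Standard errors and intervals were derived from the F statistic. The labels number the tumors within a group and do not name the mice, so p-values measure the spread between these tumors. Alternatives were other scalings, limma 3.58.1, DESeq2 1.42.0, other filters, thinning, a replicate block and leaving out each tumor. The study's route was quantile normalization with a t-test per gene, and it reported genes that passed its thresholds. Here quantile-normalized counts were compared with limma's moderated test instead, so the study's own test was not rerun. Transcript lengths came from GENCODE M21 by accession, and promoters from RefSeq on GRCm38.p6, where 8 of 8 members matched by symbol and 7 of them by the deposited start. Deposited stop positions of 5 members lie 1 base past the RefSeq gene end.

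Members and lists were chosen with earlier results of these data known. The genes named are the members, pathway genes at an unadjusted p under 0.05 or with the smallest p of their list, and the 3 genes most like each member among those with a mean of at least 5 CPM, and of a marker list its 1 or 2 most abundant genes. Outside this rule, Lfng, Esr1, Pgr and Erbb2 are named as checks of the line. Markers at 0, Rgs5, Krt5, Krt14, Krt17, Cdh1, Cldn3, Cldn4 and Cldn7 were named after their values were seen. A pathway gene that this rule would name is not reported here.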

Additional observations from a re-analysis of the deposited data

How the results depend on the processing

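With 3 tumors per group the test could miss changes within the intervals given, and the spread between tumors enters all of them. Of 128 log2 fold changes of members under the alternatives, 117 kept their sign, 0 had an adjusted p under 0.05, and 3 had an unadjusted p under 0.05. The smallest adjusted p was 0.548. DESeq2's Wald test gave 37 genes after adjustment and 1 member at an unadjusted p under 0.05, Jag2, and the cause was not tested. Over the fits that each omit 1 tumor, the members at an unadjusted p under 0.05 numbered from 0 to 2, the genes from 520 to 877, and the genes past adjustment stayed at 0. In those fits the log2 fold change ran from -0.092 to 0.16 for Notch1, from -0.16 to 0.11 for Notch2, from -0.20 to 0.11 for Jag1 and from -0.24 to 0.28 for Dll1, so that these signs are not settled. It ran from 0.29 to 0.79 for Notch3, from 0.13 to 0.44 for Notch4, from 0.24 to 0.91 for Jag2 and from -0.31 to -0.045 for Dll4. Thinning to the smallest library gave 0.0069 for Jag1 and -0.075 for Dll1. Between control and SS tumors of the same replicate number, correlations of deviations were 0.116, 0.0205 and 0.0767 for numbers 1, 2 and 3. For control tumors 1 and 3 the SS tumor of the same number had the highest correlation, and for control tumor 2 another did. These values do not settle whether the numbers pair the tumors. With the replicate number as a block there were 0 genes after adjustment, 643 genes and 0 members at an unadjusted p under 0.05. Of 56 differences in family shares under coding length or without 1 tumor, 4 changed sign, those of Notch1 and Dll1 without 1 tumor. Without 1 tumor the difference ran from -12.6 to -0.854 percentage points for Jag1 and from 3.24 to 14.1 for Jag2. A fit by transcript was not run, since each member had 1 transcript.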

Other observations

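The genes with the pattern most like that of each member were sought among genes with a mean of at least 5 CPM, by Pearson's r of log2 CPM over the 6 tumors, as a description. Among 7644 genes, Notch1 was most like Rab8b (r = 0.990), Nnt (r = 0.990) and Cep250 (r = 0.987), and Notch2 was most like Anapc10 (r = 0.996), Esf1 (r = 0.989) and Tsr1 (r = 0.984). Notch3 was most like Dusp22 (r = 0.998), Rps27a (r = 0.993) and E4f1 (r = 0.991), and Notch4 was most like Nit2 (r = 0.986), Tbc1d22b (r = 0.982) and Sel1l3 (r = 0.979). Jag1 was most like Rdx (r = 0.988), Fbxl5 (r = 0.987) and Uggt1 (r = 0.987), and Jag2 was most like Zfp46 (r = 0.994), Srek1 (r = 0.979) and Ezr (r = 0.978). Dll4 was most like Nr2f2 (r = 0.982), Gm6402 (r = 0.980) and Mpdz (r = 0.975), and Dll1, among 7645 genes, was most like Mccc1 (r = 0.996), Spg7 (r = 0.987) and Cmpk1 (r = 0.984). These r were the highest of many, over only 6 tumors.

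Within tumors, the level per kb of Notch1 was between 0.764 and 0.868 times that of Notch2 in control and between 0.850 and 0.874 times in SS tumors. The level per kb of Jag1 was between 1.46 and 3.12 times that of Jag2 in control and between 0.865 and 2.36 times in SS tumors. The pooled SD of log2 CPM within groups was 0.22 for Notch1, a value larger than that of 37.3% of the genes tested, and 0.50 for Jag2, larger than that of 75.3%.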
